A study of Mus musculus with 2 samples.

Results

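The cells described here are cluster 4 of the depositors' clustering of all cells from the mouse lower incisor, a tooth that grows throughout life. A cell belonged to the cluster when the deposited cell table gave it that number, which held for 1478 of 23528 cells. The depositors gave the clusters numbers and no names, and the cluster was examined here as macrophages and monocytes. One library came from a control mouse, with no further genotype given, and the other from a Memo1;K14CRE mouse, in which Cre recombinase under the keratin 14 promoter deletes Memo1 in epithelium, so macrophages lie outside the cells that this promoter is known to drive. Both animals were at postnatal day 20, and the harvested cervical loop region held epithelium and mesenchyme, loosened with trypsin and dispase before 10x Genomics droplet capture. With 1 mouse and 1 library in each group no test between the groups was possible. "Higher" and "lower" refer to the libraries and not to the genotypes. Intervals are at the 95% level and hold counting error alone, without variation between animals or from PCR.

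Macrophages are phagocytes that settle in nearly every tissue, including the pulp and the tissue around the enamel organ, and part of them derive from blood monocytes. They make complement C1q, the recognition unit of the classical complement pathway, and chemokines, the small secreted proteins that attract other leukocytes. A share of tissue macrophages carries the hyaluronan receptor Lyve1 and lies beside vessels, and another share carries MHC class II, the molecules that present peptides to helper T cells and whose transcription depends on the coactivator Ciita.

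In the control library 491 of 9708 cells were in the cluster, a share of 5.06% (Clopper-Pearson interval 4.63% to 5.51%), and in the mutant library 987 of 13820, a share of 7.14% (6.72% to 7.58%). Some of the genes that lead the cluster, among them Ccl2, Ccl12 and Lyve1, differed between the libraries, so no difference in cluster size is read from these shares. The cells were deep and alike in depth, with a median of 14473 UMIs (unique molecular identifiers, counts of captured transcripts) in the control and 14240 in the mutant library, from 2124 to 44552 and from 1749 to 49395. They held a median of 3395 and 3507 genes and 5.30% and 5.22% mitochondrial counts. Over all cells the libraries were less alike, with a median of 2643 and 6798 UMIs. The libraries shared 139 cell barcodes, of which 0 were in the cluster. Levels below are CPM, counts of a gene summed over the cluster's cells in a library and scaled to 1000000 of the 7403886 or 14924358 UMIs of those cells.

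Markers of macrophages were abundant in the cluster and those of circulating monocytes were low. Because every gene was open to the clustering, the following levels describe the cluster and test nothing. C1qa, which encodes a chain of C1q (chromosome 4, 136895917 to 136898803, minus strand, GRCm38, GENCODE M21), stood at 7297 CPM in the control and 6693 in the mutant library. The median over the 28 other clusters was 24.3 and 55.8 CPM, and the highest of them, cluster 1, had 4350 and 4087. Mrc1, the mannose receptor, stood at 1312 and 1684 CPM against 517 and 648 in cluster 1, again the highest of the others. Csf1r, the receptor for the growth factor that macrophages need, stood at 1263 and 1064 CPM against 456 and 438 in cluster 1. All 14 genes of a macrophage identity list were measured, meaning that they reached 10 CPM in the higher library and 20 counts in all, and all 14 lay at least 2-fold above all other cells with both libraries pooled and 10 CPM added to both sides. Of the 2769 genes at 50 CPM or more, 886 or 32.0% did so. The identity list was not particular to cluster 4. It summed to 23489 CPM in the control and 19798 in the mutant library there. In cluster 1 it summed to 14499 and 13475 CPM, and in cluster 23 to 20820 and 22027. The C1q genes summed to 18978 and 17439 CPM in cluster 4 and to 997 and 232 in cluster 23.

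**Figure D1:**
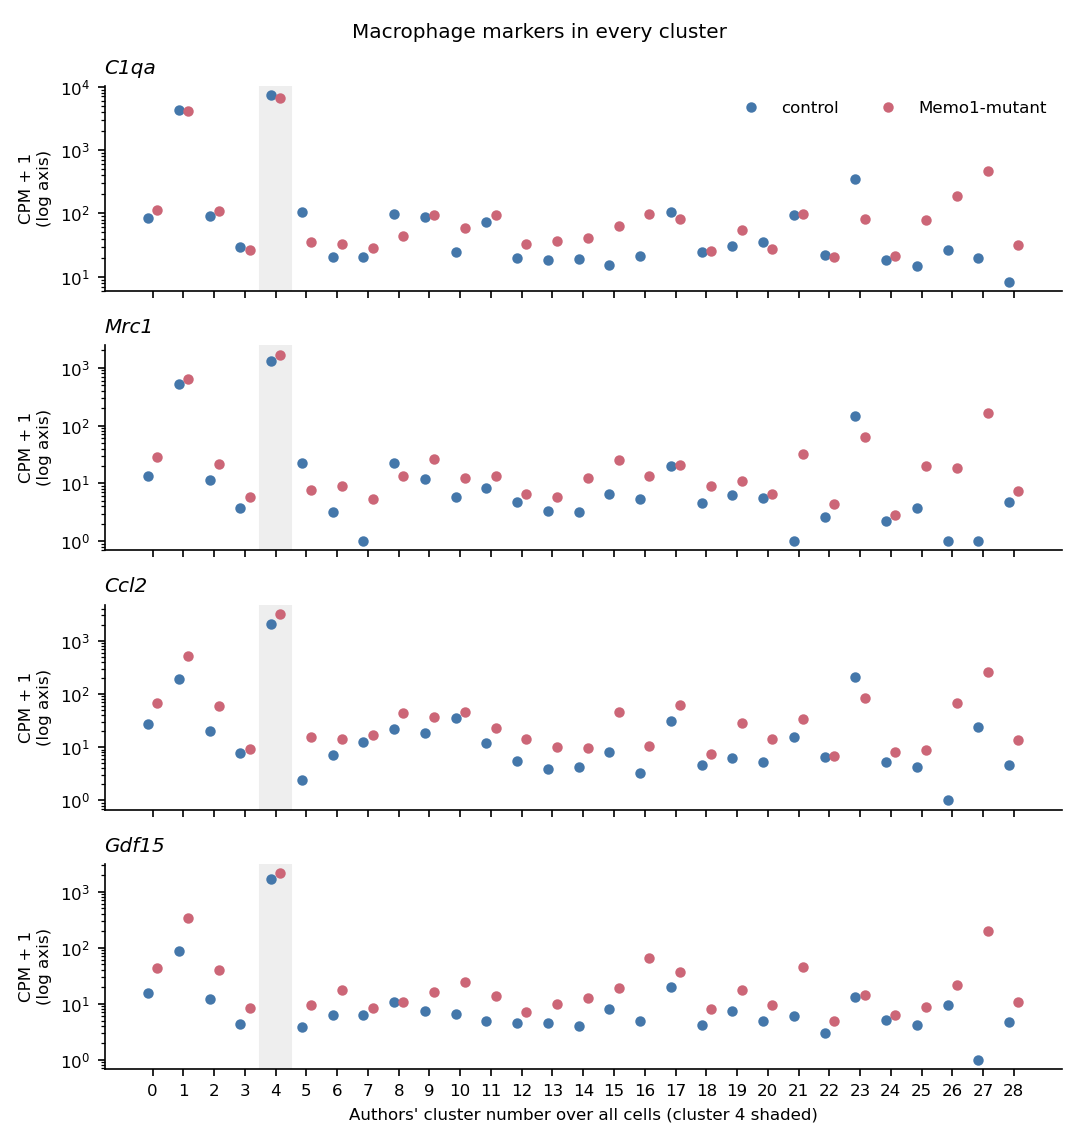
Level of 4 of the cluster's markers (C1qa, Mrc1, Ccl2 and Gdf15) in each of the depositors' clusters, as CPM plus 1 on a log axis, for the control and the mutant library, with cluster 4 shaded. For C1qa cluster 1 comes closest, at 4350 and 4087 CPM against 7297 and 6693 in cluster 4, while for Ccl2 the highest other clusters reach 205 CPM in the control and 509 in the mutant library.

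After each cell was thinned to 1000 UMIs, 98.8% of control cells and 99.6% of mutant cells of the cluster had at least 2 UMIs of the C1q genes. In the endothelial cells of cluster 8, which should lack C1q and whose median depth was 12518 and 10870 UMIs, 3.09% and 1.18% did. Without thinning the shares were 99.8% and 99.9% against 18.5% and 16.9%.

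Markers of circulating monocytes were low. Ly6c2, a surface marker of inflammatory monocytes, had 0 CPM in the control and 0.402 in the mutant library. Of 12 monocyte genes 7 were measured, and after thinning 4.48% of control cells and 2.94% of mutant cells had at least 2 UMIs of the list (34.2% and 31.7% without thinning), below the 7.72% and 8.95% of endothelial cells (54.8% and 60.1%). The list holds genes such as Vcan and Fn1 that stood higher in other cells, so the endothelial share does not measure monocytes. In cluster 23 the list summed to 7601 and 11623 CPM, against 196 and 184 in cluster 4, and Ly6c2 stood at 338 and 661. Ccr2, the receptor that draws monocytes into tissue, was present in cluster 4 at 52.9 and 41.3 CPM. The cluster is therefore called macrophages below. At least 2 UMIs of T and NK cell genes, or of mast cell genes, were found in 0 of 491 and 0 of 987 thinned cells, which allows up to 0.611% and 0.304% of cells with as many such UMIs after thinning. Without thinning, 1 control and 1 mutant cell had at least 2 UMIs of the T and NK list, and 2 and 6 cells had that many of the mast cell list.

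Among the other clusters C1qa, Mrc1 and Csf1r were highest in cluster 1, with 1253 control and 1182 mutant cells. Its cells were shallow, with a median of 866 and 846 UMIs, and their median mitochondrial share was 17.3% and 14.1%. Compared with them, the macrophages of cluster 4 were at least 2-fold higher for 633 of 2769 genes (22.9%, counts of both libraries pooled and 10 CPM added) and at least 2-fold lower for 40 (1.44%), and the median gene was higher by 0.37 on the log2 scale. Chemokine, other inflammatory and immediate early genes were among the lists with the highest medians. The CXC chemokines had a median log2 fold of 2.96 with the libraries pooled, and 4 of 5 were at least 2-fold higher. All 15 immediate early genes, transcription factors and regulators switched on within minutes of a stimulus, were at least 2-fold higher in each library, as were 11 of 12 NF-kB targets and feedback genes and 8 of 10 cytokine genes. Of 9 CC chemokines 5 were in the control and 6 in the mutant library, and of 6 MHC class II genes 4 and 0. Of the 3 C1q genes 0 were in either.

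Tnf, the cytokine tumour necrosis factor, stood at 538 and 597 CPM in cluster 4 and at 16.3 and 55.8 in cluster 1. Dusp1, an immediate early phosphatase, stood at 1847 and 1821 CPM against 122 and 304, and Nlrp3, the sensor of the inflammasome, at 453 and 513 against 12.1 and 56.5. Both libraries thus showed the same order for each of these genes. In the other direction 11 of 12 mitochondrial genes in the control and 9 in the mutant library were at least 2-fold lower in cluster 4. Whether the dissociation of the tissue, cell damage or free RNA has a part in these differences was not tested.

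**Figure D2:**
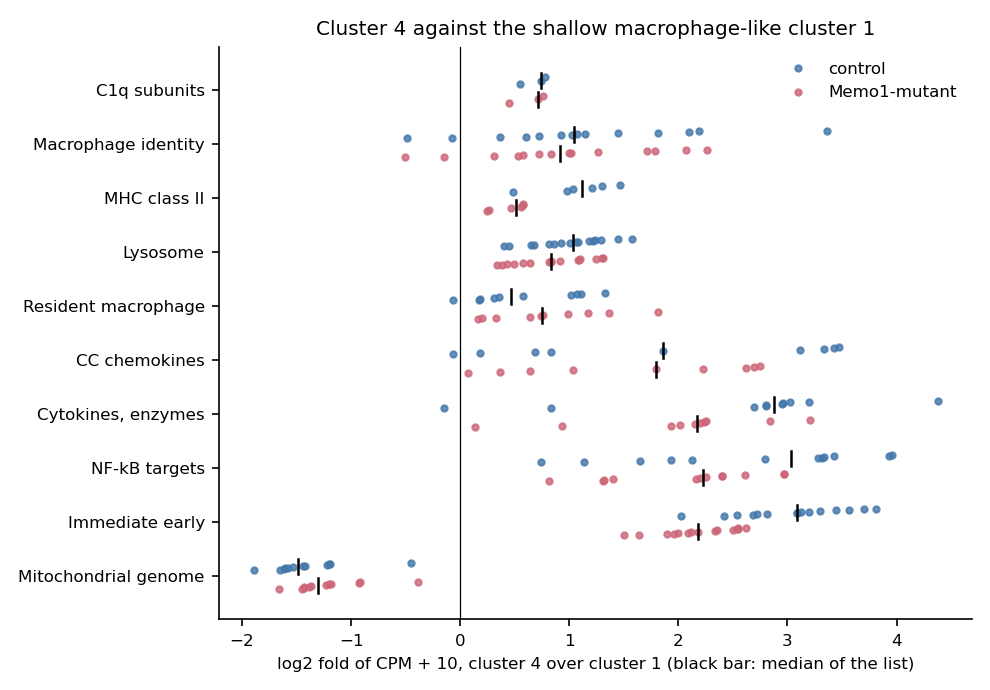
Log2 fold of cluster 4 over cluster 1 for the members of 10 gene lists, each gene drawn for the control and the mutant library from CPM plus 10, with bars at the list medians. Immediate early genes (medians 3.09 in the control and 2.18 in the mutant library) lie above C1q (0.74 and 0.71) and MHC class II (1.12 and 0.51), and mitochondrial genes lie below 0 (-1.48 and -1.30).

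Between the libraries, 311 of 7765 measured genes were higher and 176 lower in the mutant macrophages, 4.01% and 2.27%. Counts of called genes in the lists below are to be set beside these shares, and a short list without calls lies near them. A gene was called when its ratio passed 1.5-fold and the exact interval of the ratio of 2 Poisson counts lay on that side of 1. Of the called genes 63.9% were higher. With TMM scaling, which moves the median gene from 0.09 to -0.01 on the log2 scale, 202 were higher and 248 lower, so that 44.9% of the called genes were higher, and with DESeq2 size factors 208 and 242 (46.2%). The balance of the counts therefore depends on the scaling, and the ratios below are read against a median shift of 0.10. In cluster 1 of the same libraries 528 of 7279 genes were higher and 86 lower (7.25% and 1.18%).

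The libraries also differed in sex. Xist, the RNA of the inactive X chromosome, had 1 count in the control and 16197 in the mutant macrophages, and the Y-linked Ddx3y had 868 and 0. Genotype, sex and animal cannot be told apart in any difference given here. A further set of genes was far apart in nearly all cells. Gm10709, a pseudogene, stood at 222 and 0.402 CPM in the macrophages and was lower in the mutant in 23 of 23 other clusters, Gm8797 at 189 and 27.6, lower in 25 of 25, and the splicing factor gene Cwc22 at 60.2 and 15.0, lower in 24 of 24. Erdr1 stood at 37.3 and 125 CPM and was higher in 25 of 25. These genes are not read as macrophage differences. Only clusters with 50 cells in both libraries, and for each gene only those with enough counts, enter such counts.

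**Figure D3:**
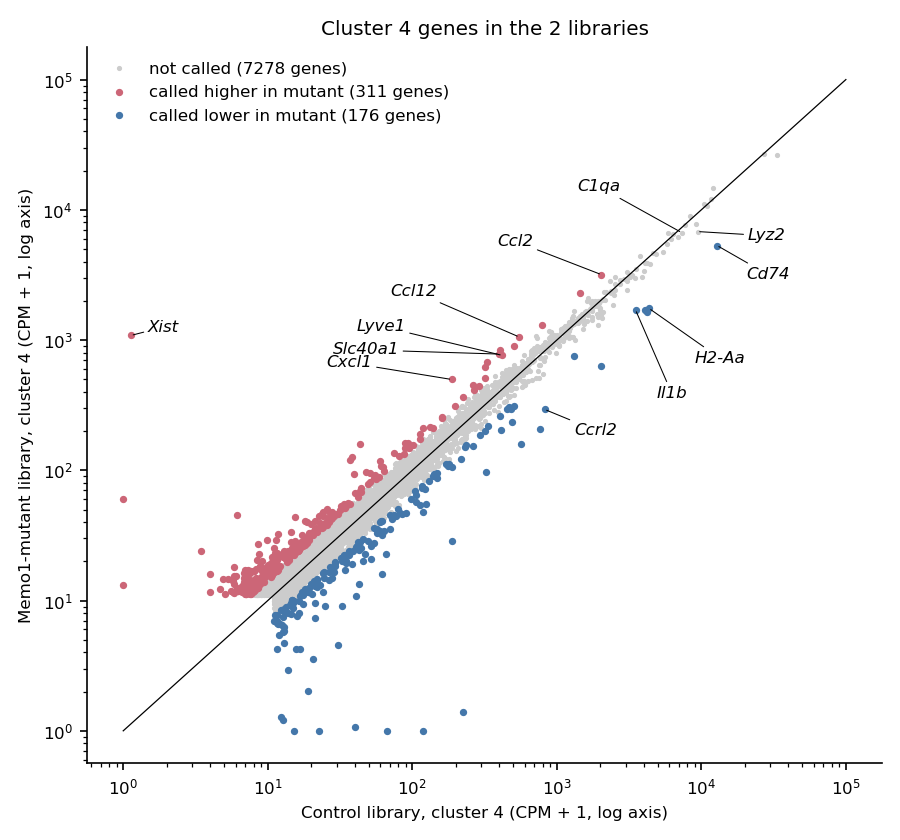
CPM plus 1 of each measured gene in the macrophages of the control (horizontal) and the mutant library (vertical), both axes logarithmic, with called genes in colour. Of 7765 genes 311 are higher and 176 lower, and the labelled class II genes (H2-Aa and Cd74) lie below the diagonal at more than 1000 CPM in both libraries.

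MHC class II genes were lower in the mutant macrophages. All 7 measured members of the 9 on the list were called lower, with a median log2 ratio of -1.27 against 0.09 over all measured genes. The 2 others, H2-DMb2 at 6.35 and 4.29 CPM and H2-Oa at 1.49 and 1.47, lay below the limit of 10 CPM. H2-Aa, the alpha chain of the class II molecule I-A (chromosome 17, 34282744 to 34287823, minus strand), stood at 4345 CPM in the control and 1749 in the mutant library, 2.48-fold lower, with a ratio of mutant to control of 0.403 (0.396 to 0.409). H2-Ab1, the matching beta chain (chromosome 17, 34257689 to 34269419, plus strand), stood at 4190 and 1647 CPM, a ratio of 0.393. H2-Eb1, the beta chain of I-E (chromosome 17, 34305867 to 34316674, plus strand), stood at 4055 and 1693 CPM, a ratio of 0.417. These 3 chains of the class II molecules were lower by nearly the same factor.

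Cd74, the invariant chain that escorts class II through the cell, stood at 12839 and 5319 CPM, a ratio of 0.414 (0.410 to 0.418). H2-DMa and H2-DMb1, which form the H2-DM molecule that loads peptides, stood at 317 and 201 CPM and at 410 and 202 CPM, ratios of 0.633 and 0.492. The call for H2-DMa was lost under 3 of the 8 alternatives in processing, at 0.670 after thinning, 0.678 with means of per-cell CPM and 0.682 without cells that held genes of other lineages. Ciita, the class II transactivator (chromosome 16, 10480059 to 10528418, plus strand), stood at 23.8 and 8.04 CPM, a ratio of 0.338 (0.266 to 0.429).

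Class II promoters share an X box and a Y box, bound by the RFX and NF-Y complexes that recruit Ciita. The 150 bases before the start of 3 of the genes above are shown because their boxes stand at nearly the same spacing, from RefSeq promoters of GRCm38.p6, each 5′ to 3′ on the gene's strand. Capitals mark the X box as searched, CTNGNAACT, and the Y box, TGATTGG, the inverted CCAAT box. They lie at chr17:34287824-34287973 (minus) for H2-Aa, chr17:34305717-34305866 (plus) for H2-Eb1 and chr17:34153041-34153190 (plus) for H2-DMb1.
H2-Aa: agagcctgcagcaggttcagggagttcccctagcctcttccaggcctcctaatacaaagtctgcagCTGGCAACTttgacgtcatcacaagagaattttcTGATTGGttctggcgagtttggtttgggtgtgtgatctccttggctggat
H2-Eb1: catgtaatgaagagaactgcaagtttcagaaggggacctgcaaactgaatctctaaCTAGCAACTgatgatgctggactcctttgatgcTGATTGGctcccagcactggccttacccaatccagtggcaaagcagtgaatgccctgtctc
H2-DMb1: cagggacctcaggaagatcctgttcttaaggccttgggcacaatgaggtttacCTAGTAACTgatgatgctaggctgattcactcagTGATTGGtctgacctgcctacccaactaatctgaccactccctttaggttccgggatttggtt

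The gap between the boxes was 25 bases in H2-Aa, 24 in H2-Eb1 and 25 in H2-DMb1. Searched on both strands, 5.71% of 32851 promoters of this length held the Y box, 2.00% the X box and 38, or 0.116%, held both. The letters of the X box were chosen after these promoters had been read, so the count of 38 is a description. With the letters as searched, neither box was found in the 2 entries for H2-DMa, and H2-DMb2 and H2-Oa matched the Y box alone. An X box with other letters would be missed by this search. The absence of a match therefore does not show that these genes lack an X box. The table has no entry for H2-Ab1 or Ciita, and the promoter of Cd74 is not shown.

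Other presentation genes were mostly not called. Of 8 MHC class I genes, which present peptides to cytotoxic T cells, 8 were measured and 1 was called lower, H2-T23, at 234 and 156 CPM with a ratio of 0.667 that lay at the threshold, and the call was lost under 4 alternatives, at 0.669 to 0.688. H2-K1 stood at 1291 and 1051 CPM, H2-D1 at 1930 and 1495 and B2m, their light chain, at 1530 and 1396, none of them called. Beside the class II genes, Cytip, a regulator of leukocyte adhesion known from dendritic cells, stood at 118 and 46.8 CPM (ratio 0.395), and Plbd1, a phospholipase B-like gene, at 123 and 54.4 (0.442). Cd83, which in antigen-presenting cells stabilises class II at the surface, stood at 1920 and 1308 CPM and was called only with TMM or DESeq2 scaling, at 0.636 and 0.638.

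In clusters 1, 8 and 23 of the same libraries the median ratio of the class II genes lay closer to 1. In cluster 1 the members summed to 11324 and 7855 CPM, a ratio of 0.694, against 26188 and 10824 CPM and 0.413 (0.411 to 0.416) in the macrophages, and their median log2 ratio was -0.53. It was -0.50 in the endothelium of cluster 8 and -0.43 in cluster 23, whose H2-Aa level of 5838 and 4142 CPM was above that of the macrophages. Where H2-Aa was low it went both ways, at 38.5 and 14.2 CPM in cluster 5 and 19.6 and 64.3 in cluster 10, and the median summed class II level over the other clusters was 122 CPM in the control and 255 in the mutant library. The difference between clusters was not tested, and all 4 clusters share the same 2 mice.

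With the lower level came a smaller share of class II-rich cells. Class II counts were summed in each cell and set to 10000 UMIs. The median cell had 231 in the control and 13 in the mutant library, while the 90th percentiles, 727 and 531, were closer. Under 10 lay 85 of the 491 control cells and 470 of the 987 mutant cells. A line at 100, drawn after the data had been seen, left 308 control cells at or above it, 62.7% (58.3% to 67.0%), and 306 mutant cells, 31.0% (28.1% to 34.0%), with 77 and 135 cells between 50 and 200. A line at 50 gave 68.8% and 37.1%, and one at 200 gave 53.2% and 23.4%. After thinning to 1000 UMIs, 78.6% of control cells and 49.6% of mutant cells had at least 2 class II UMIs (98.4% and 93.6% without thinning), against 6.56% and 5.74% of endothelial cells.

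**Figure D4:**
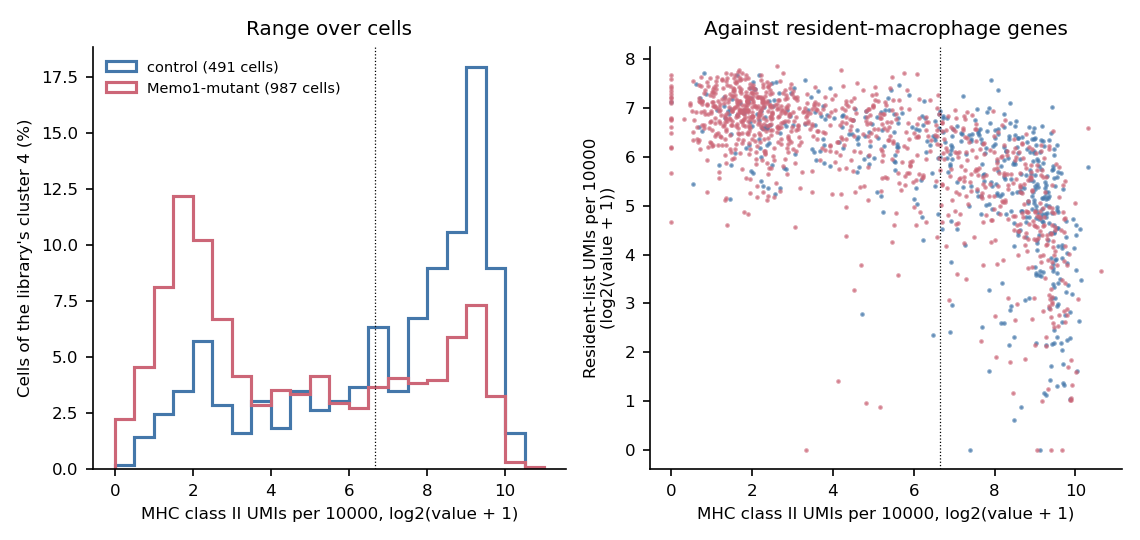
Left, percent of the macrophages of each library by their MHC class II UMIs per 10000 (log2 of the value plus 1), with a dotted line at 100. Right, each cell's class II value against its resident macrophage list on the same scale; 62.7% of control cells and 31.0% of mutant cells lie at or above the line, and class II-poor cells lie higher on the resident axis in both libraries.

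Some genes of resident, vessel-associated macrophages were higher in the mutant library. Of 12 genes on the resident list 10 were measured, 4 were called higher, 0 lower and 6 not called, with a median log2 ratio of 0.41. Of all measured genes 4.01% were called higher and 2.27% lower. Lyve1 (chromosome 7, 110850607 to 110863239, minus strand) stood at 418 and 762 CPM, a ratio of 1.82 (1.75 to 1.90). Cbr2, a carbonyl reductase, stood at 318 and 626 CPM (1.97), F13a1, the A chain of coagulation factor XIII, at 790 and 1303 (1.65), and Folr2, the folate receptor beta, at 225 and 362 (1.61). F13a1 lost its call after thinning, at 1.38, and the other 3 were called under all 8 alternatives, although not within the ranges of class II described below.

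Fcna, the lectin ficolin A, which is not on the list, stood at 325 and 672 CPM with a ratio of 2.07. Pf4, a chemokine of platelets and macrophages, stood at 2319 and 2835 CPM, Stab1, a scavenger receptor, at 700 and 862, Cd163, the haemoglobin scavenger receptor, at 197 and 174 and Ccl8 at 301 and 281, none of them called. In cluster 1, 1 of the resident genes was called higher, Cbr2, at 334 and 556 CPM, and the median was 0.24. After thinning 81.7% of the control and 90.7% of the mutant macrophages had at least 2 UMIs of the list (98.6% and 98.8% without thinning), and 6.56% and 6.93% of endothelial cells.

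Class II and the resident list ran against each other across cells. The median cell below 100 class II UMIs per 10000 had 96.2 resident UMIs per 10000 in the control and 110 in the mutant library, and the median cell above it 36.5 and 32.8. Lyve1 stood at 107 CPM in the class II-rich and 821 in the class II-poor control cells, and at 109 and 985 in the mutant cells. Il1b, the cytokine interleukin 1 beta, ran the other way, at 5182 and 1324 CPM in the control and 3986 and 925 in the mutant library. Ccr2 counts lay mostly in the class II-rich cells, at 93.5 against 0.310 CPM in the control and 148 against 5.03 in the mutant library. Over cells, Spearman's rho between class II and the resident list was -0.69 in the control and -0.68 in the mutant library (Pearson -0.57 and -0.67; 491 and 987 cells that share a library), a description since both were taken from the same counts.

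Within the ranges some differences remained and others did not. Lyve1 had a ratio of 1.02 (0.891 to 1.17) among the class II-rich and 1.2 (1.15 to 1.25) among the class II-poor cells, Folr2 0.603 and 1.21, F13a1 0.872 and 1.31, Cbr2 1.15 and 1.45 and Fcna 0.862 and 1.47, so that none of these 5 was called higher within a range, and Folr2 was called lower among the class II-rich cells. Slc40a1 kept ratios of 1.62 and 1.53, Ccl12 1.51 and 1.67, and Ccrl2 0.534 and 0.379. Of the 311 genes called higher over all cells, 162 were called higher in the class II-rich and 185 in the class II-poor cells (3.89% and 3.63% of all measured genes were), and of the 176 lower, 69 and 122 were called lower (3.13% and 2.81%). These genes were picked from the summed counts of the same cells, so many calls within the ranges are built in. The counts describe the ranges and test nothing. Ratios of class II genes within the ranges are not given because their counts set the ranges.

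**Figure D5:**
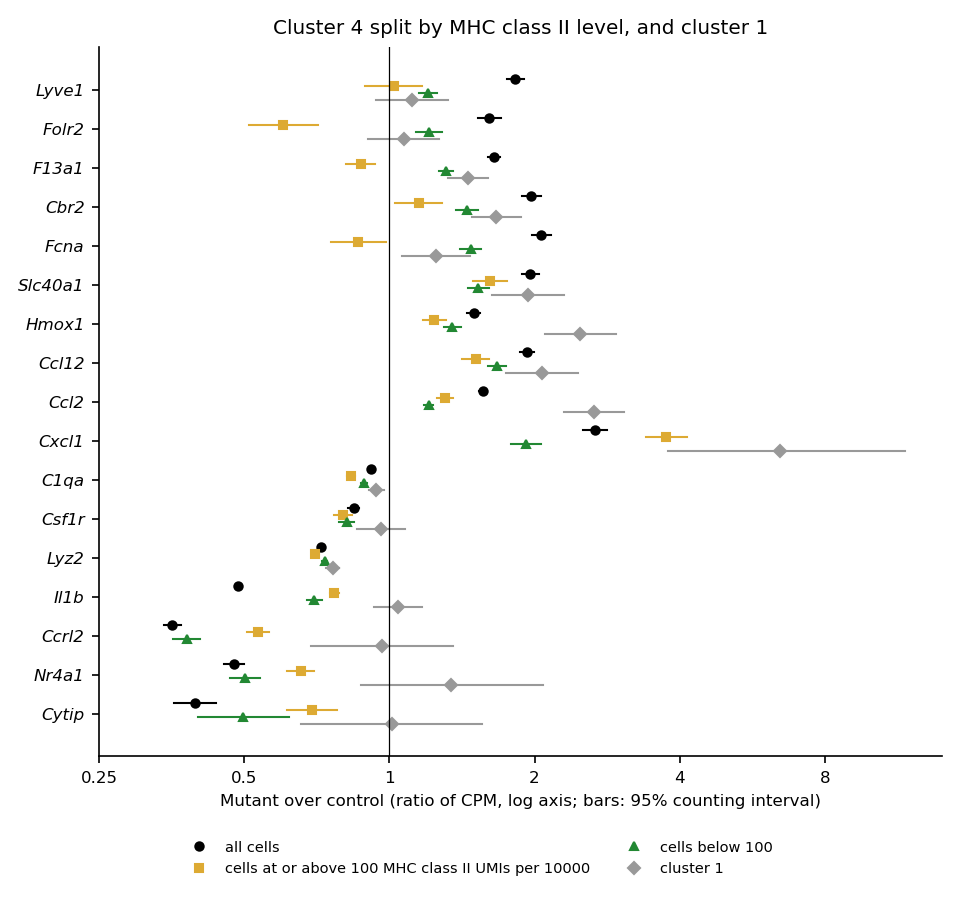
Ratio of mutant to control CPM on a log axis for 17 genes, over all macrophages, over cells with at least 100 class II UMIs per 10000, over cells with fewer, and in cluster 1, with exact 95% intervals. Lyve1 falls from 1.82 over all cells to 1.02 and 1.2 within the ranges, while Slc40a1 stays at 1.62 and 1.53 and Ccrl2 at 0.534 and 0.379.

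The iron exporter gene was higher in the mutant macrophages in both ranges. Slc40a1 encodes ferroportin, the cell's iron exporter (chromosome 1, 45908068 to 45926523, minus strand), and stood at 398 and 780 CPM, a ratio of 1.96 (1.88 to 2.04), with a ratio of 1.94 in cluster 1. Hmox1, haem oxygenase 1, which frees iron from haem, stood at 721 and 1078 CPM. Its ratio of 1.496 missed the threshold and was called under 5 of the 8 alternatives, at 1.51 to 1.76. Of the 13 iron and haem genes 12 were measured and Slc40a1 alone was called. The ferritin genes Fth1, at 9137 and 7798 CPM, and Ftl1, at 10356 and 11011, were not. Haemoglobin RNA also differed between the libraries. Erythroid genes summed to 3655 CPM in the control and 1095 in the mutant macrophages and to 9498 and 900 in cluster 1. They summed to 40687 and 2222 CPM in cluster 23, but to 1181 and 5588 in cluster 8. The median over the other clusters was 1142 and 1122 CPM. The part of red cell RNA in the differences of the iron and haem genes was not tested.

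Chemokines were abundant in the macrophages of both libraries, and a few were higher in the mutant. Of 11 CC chemokines 10 were measured, 2 were called higher and 0 lower, with a median of -0.00. Ccl12 (chromosome 11, 82101845 to 82103400, plus strand), a monocyte attractant of the Ccl2 family, stood at 547 and 1056 CPM, a ratio of 1.93 (1.86 to 2.00). Ccl2 (chromosome 11, 82035571 to 82037453, plus strand) stood at 2033 and 3179 CPM, a ratio of 1.56 (1.54 to 1.59), a call lost with TMM and DESeq2 scaling, at 1.46 each, and at 1.49 without cells that held genes of other lineages. In the class II-rich cells Ccl2 stood at 1225 CPM in the control and 1599 in the mutant library. In the class II-poor cells it stood at 3081 and 3718 CPM, and it passed 1.5-fold in neither range. Ccl7, at 1605 and 1989 CPM, Ccl3, at 2096 and 1642, and Ccl4, at 3042 and 2844, were not called.

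Among 8 measured CXC chemokines 3 were called higher and 1 lower, the interferon-induced Cxcl9 at 15.5 and 8.91 CPM, whose ratio turned from 0.574 to 2.94 without its top cell in each library. The shares over all measured genes were 4.01% higher and 2.27% lower. Cxcl1 (chromosome 5, 90891241 to 90893115, plus strand), which attracts neutrophils, stood at 186 and 497 CPM, a ratio of 2.67 (2.52 to 2.83). It had a UMI in 22.6% of control cells and 45.3% of mutant cells, and 1 cell held 10.4% of its control counts. The 2 others called higher, Cxcl12 at 18.4 and 30.6 CPM and Cxcl14 at 10.3 and 22.1, stood at 151 and 301 and at 48.5 and 68.8 CPM in the rest of the cells. Cxcl2, which was among the markers of the cluster, stood at 5914 and 6614 CPM, and Gdf15, a stress-induced member of the TGF-beta family, at 1644 and 2106, neither called.

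Genes of cytokines and chemokine receptors were lower or not called. Of 10 measured cytokine genes 2 were called lower and 0 higher. Il1b (chromosome 2, 129364570 to 129371139, minus strand) stood at 3503 and 1703 CPM, a ratio of 0.486 (0.478 to 0.495), though within the class II ranges its ratio was 0.769 and 0.698, past the threshold in neither. Ptgs2, cyclooxygenase 2, stood at 84.1 and 45.4 CPM (0.540). Tnf, at 538 and 597 CPM, Il1a, at 368 and 352, and Il10, an anti-inflammatory cytokine, at 117 and 93.7, were not called.

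Of 6 measured chemokine receptors 3 were called lower and 0 higher. Ccrl2, an atypical receptor that binds chemerin (chromosome 9, 111054486 to 111057519, minus strand), stood at 824 and 292 CPM, a ratio of 0.355 (0.341 to 0.369), and was lower in both ranges. Cxcr4, the receptor of Cxcl12, stood at 215 and 120 CPM (0.560). In cluster 1 Ccrl2 stood at 54.0 and 52.1 CPM and Cxcr4 at 14.2 and 23.5, neither called. Ednrb, the endothelin B receptor, was among the 12 genes ranked first as higher, at 35.8 and 119 CPM (3.33, 2.92 to 3.80), and its ratio was 1.23 among the class II-rich and 2.59 among the class II-poor cells.

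Signalling genes that set cluster 4 apart from cluster 1 were mostly not called between the libraries within cluster 4. Of 14 NF-kB genes 0 were called in either direction, with a median of 0.06, while in cluster 1 8 of 13 were called higher, with a median of 0.71. Of 15 immediate early genes 1 was called lower, Nr4a1, an orphan nuclear receptor, at 489 and 233 CPM (0.476, 0.455 to 0.499). Fos stood at 3911 and 3043 CPM, Egr1 at 1750 and 1505 and Atf3 at 1402 and 1379, not called. In cluster 1 8 of 15 were called higher. Of the 14 interferon response genes, Ifi27l2a was called higher at 316 and 512 CPM (1.62), a call lost at 1.45 after thinning and at 1.46 without cells that held genes of other lineages, and Ifit2 lower at 20.1 and 12. The Ifit2 ratio turned from 0.596 to 1.13 when the cell with most of its counts in each library was left out.

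Genes of macrophage identity and upkeep were mostly not called. All 14 identity genes and 16 lysosomal genes were measured and 0 were called. Of all measured genes 4.01% were called higher and 2.27% lower, so lists of this size without calls are near the share over all genes. Lyz2, lysozyme, stood at 9425 and 6808 CPM, a ratio of 0.722, and Apoe, apolipoprotein E, at 33451 and 26444, a ratio of 0.791. C1qa, C1qb and C1qc had ratios of 0.917, 0.896 and 0.954. Of 13 measured myeloid transcription factors Cebpa, which drives myeloid fate, was called lower at 146 and 86.8 CPM (0.594), a call lost at 0.797 after thinning. Of 5 Fc receptors, which bind antibodies, Fcgr4 was called lower at 138 and 89.8 CPM (0.652) and lost the call under 4 alternatives, at 0.675 to 0.804. Of 12 measured growth factors Vegfb was called higher at 33.2 and 49.9 CPM (1.5, at the threshold, with the call lost under 5 alternatives), and Igf1, at 241 and 349 CPM (1.45), was not.

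Of 10 heat shock genes 3 were called higher, with a median of 0.41, where 4.01% of all measured genes were called higher and 2.27% lower. Hspa1a, the inducible Hsp70 chaperone, stood at 88.3 and 149 CPM (1.68), Hspa1b at 23.9 and 38.3 (1.60) and Hsph1 at 17.8 and 27.4 (1.54), and the latter pair lost their calls with TMM scaling, at 1.5 and 1.43, and after thinning, at 1.38 and 1.37. Hsph1 also lost its call with DESeq2 size factors. Of the 2 metallothioneins, metal-binding stress proteins, Mt2 was called lower at 332 and 219 CPM (0.661), a call lost under 5 of the 8 alternatives, at 0.670 to 0.802. Of 12 measured cell cycle genes 3 at low levels were called higher, Mcm5 at 6.21 and 11.5 CPM, Mcm6 at 9.99 and 24.4 and Tyms at 7.56 and 12.3. The ratio of Mcm5 turned to 0.967 without the deepest 5% of cells and that of Tyms to 0.696 after thinning, and Mcm6 lost its call at 1.42 after thinning. Mki67, a marker of dividing cells, stood at 49.6 and 53.9 CPM and was not called. After thinning 2.24% of the control and 4.36% of the mutant macrophages had at least 2 cell cycle UMIs, with overlapping intervals (1.12% to 3.97% and 3.17% to 5.82%), and 3.47% and 2.36% of endothelial cells. Without thinning the shares were 68.6% and 68.9%.

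Osteoclasts are the bone-resorbing cells of the same lineage, and their genes were low in most of the cells. After thinning 8.35% of control cells and 8.21% of mutant cells had at least 2 UMIs of the osteoclast list (76.6% and 76.3% without thinning), against 0% and 0.507% of endothelial cells. Ctsk, the osteoclast protease cathepsin K, stood at 8.37 and 11.1 CPM, below the 55.7 and 92.3 of the other cells, while Acp5, which macrophages also express, stood at 151 and 179. Mmp9, a matrix protease, was called lower at 170 and 112 CPM (0.656), and the call was lost under 4 alternatives, at 0.736 to 0.821.

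The remaining functional lists held few called genes, where 4.01% of all measured genes were called higher and 2.27% lower. Of 9 measured Toll-like receptor genes, 8 p53 targets and 10 genes of glycolysis and hypoxia 0 were called. Of 13 phagocytic receptors Colec12, a scavenger receptor, was called higher at 20.1 and 39.7 CPM, below the 106 and 175 of the other cells, and its ratio fell from 1.97 to 1.19 after thinning, which ended the call. Of 15 genes of lipid handling Lpl, lipoprotein lipase, was called higher at 13.4 and 27.1 CPM, against 16.5 and 57.1 in the other cells, a call lost after thinning at 1.77. Of 11 other complement genes 4 were called, all at low levels, with C3 at 11.5 and 5.49 CPM and Itgax, a complement receptor chain, at 12 and 5.29 lower, and C1s1 at 6.21 and 13.2 and Serping1, the C1 inhibitor, at 5.81 and 15.4 higher. After thinning Itgax, C1s1 and Serping1 were not called, with ratios of 0.435, 3.98 and 3.98 from few counts. The Serping1 ratio turned to 0.818 without cells that held genes of other lineages.

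Of 11 measured matrix genes Mmp9 and Mmp12, a macrophage elastase at 22 and 12.1 CPM, were called lower, and Timp3, a protease inhibitor at 20.7 and 34.8, and Fn1, fibronectin at 16.3 and 31, higher. Mmp12 lost its call after thinning, at 0.529, and without its top cells, at 0.719, and Fn1 after thinning, at 1.22, and without cells that held genes of other lineages, at 1.37. Slc7a11, the cystine transporter, which 2 lists share, was called lower at 19.3 and 10.3 CPM, the 1 call among 8 genes of the integrated stress response, lost after thinning at 0.398. It was joined by Gclc, a glutathione synthesis gene called higher at 16.6 and 25.2 CPM (1.52), among 9 measured NRF2 targets. The Gclc call was lost with TMM and DESeq2 scaling, at 1.42 each, with means of per-cell CPM, at 1.49, and after thinning, at 2.24. Of 13 mitochondrial genes mt-Atp8 was called lower at 231 and 151 CPM (0.656), a call lost under stricter cell limits, at 0.671, and without cells that held genes of other lineages, at 0.690. Of 3 measured dendritic cell genes Cd209a, at 55.2 and 86.8 CPM, and Siglech, at 42.3 and 67.8, were called higher, and with TMM scaling neither was.

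RNA of other cells moved with the libraries. Doublets were not called. Of the 491 control cells 91 (18.5%) and of the 987 mutant cells 343 (34.8%) held at least 5 UMIs of a list of another lineage, 67 and 324 of them of mesenchyme. Mesenchymal genes summed to 464 and 675 CPM, with 5 of 7 called higher, and stood at 1245 and 2114 CPM in cluster 1. Sfrp2, a Wnt modulator of mesenchyme, headed the genes called higher, at 42.3 and 159 CPM, and 1 cell held 65.8% of its control counts. In the rest of the cells it stood at 193 and 1243 CPM. Ptn, a growth factor at 38.2 and 92.1 CPM, fell from a ratio of 2.41 to 1.27 without those cells, and the vessel gene Rgs5, at 59.0 and 117 CPM, had 68.4% of its control counts in 1 cell. Vcan, Fn1 and Chil3, the 3 monocyte genes called higher, were likewise lower in the macrophages than in the rest, with Chil3 at 0 and 12.1 CPM against 54.0 and 111. Without cells that held genes of other lineages the Vcan ratio fell from 2.42 to 1.29, which ended its call. The monocyte list also held 2 genes called lower, S100a4, a calcium-binding protein, at 31.9 and 8.04 CPM (0.252) and Thbs1, thrombospondin 1, at 33.5 and 21.4 (0.638, or 0.706 and not called without its top cells), and its median log2 ratio was -0.36. The part of such RNA in these results was not tested.

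Epithelial genes were lower in the mutant macrophages, with 5 of 7 measured called. Krt14, the keratin whose promoter drives Cre, stood at 44.6 and 19.0 CPM against 788 and 370 in the rest, and Krt17 at 64.4 and 21.8 against 799 and 303. Amelx, amelogenin, the main enamel protein, stood at 1103 and 987 CPM against 65303 and 47831. Memo1 itself (chromosome 17, 74199036 to 74295521, minus strand) was a low-level gene in the macrophages, at 9.45 CPM in the control and 14.7 in the mutant library, a ratio of 1.56 (1.19 to 2.07). The call was lost under 5 of the 8 alternatives, at 1.40 to 1.49, and the library labelled Memo1-mutant thus showed no lower Memo1 in these cells.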

How the data were processed

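Per the labels, the authors made one 10x Genomics library from each of 2 mice, and per the submitters' processing notes used Cell Ranger (version not given), Seurat 3 and the mm10 build. The deposited values were whole-number counts of UMIs for 19626 genes in 23528 cells, with the authors' cluster numbers; no doublet removal is stated in the sources used here. The libraries held 79518656 and 120862385 UMIs.

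For each cluster and library, counts were added up over cells and scaled to their total (CPM). A gene was measured at 10 CPM or more in the higher library and 20 counts, and ratios of mutant to control carry exact 95% conditional intervals of 2 Poisson counts. Shares carry Clopper-Pearson intervals, after thinning each cell to 1000 UMIs with at least 2 UMIs of a list. Limits for a count of 0 rest on 3 counts. With 1 library per group no p-values were computed, and no test fits.

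The 44 lists held 424 genes, 7 of them not in the file. Named genes were list members, the first 12 higher and first 12 lower genes by the nearer bound of the interval at 50 CPM and 50 counts (without Xist, Y-linked, mitochondrial, ribosomal and haemoglobin genes), and the 20 genes farthest above cluster 1 and above all other cells after 10 CPM was added. Xist, Ddx3y and genes that went opposite ways in cluster 1 were named after their values were seen. Some genes that the rule allows are left out of the text. The members and the lists were chosen with earlier results of these data known. On simulated data the intervals held the true ratio for 95.6% of 7323 unaltered genes. This bears on their computation alone. It does not show how they perform on the measured data, where counts also vary between cells and animals, which intervals from Poisson counts leave out.

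Alternatives were TMM (edgeR 4.0.16) and DESeq2 1.42.0 size factors, other filters on low values, stricter cell limits (1000 UMIs, 500 genes, 10% mitochondrial counts), thinned cells, means of per-cell CPM, and removing the deepest 5% of cells, or cells with 5 UMIs of another lineage, or each gene's top cell. The class II ranges and the 3000-UMI limit were chosen after seeing the data. Gene positions came from GENCODE M21 (GRCm38) and promoters from RefSeq (GRCm38.p6). Python 3.11.15, numpy 2.4.6, pandas 2.3.3, scipy 1.17.1, matplotlib 3.10.9 and R 4.3.3 were used.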

Additional observations from a re-analysis of the deposited data

Results flagged for a closer look

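Of 271 genes called in the macrophages of cluster 4 that had at least 50 counts in cluster 1, 83 had the same call in cluster 1 and 7 the opposite one. The difference between the clusters was not tested, and each rests on 1 library per group. Nr4a2, an orphan nuclear receptor, had a ratio of mutant to control of 0.638 in cluster 4 and 2.41 in cluster 1. Without its top cells in cluster 4 the ratio was 0.693, and the call was lost. Mt2, a metallothionein, had 0.661 and 1.53, and its call in cluster 4 was lost under 5 of the 8 alternatives, at up to 0.802. Tgm2, the cross-linking enzyme transglutaminase 2, had 0.648 and 1.96, and in cluster 4 lost its call with means of per-cell CPM, at 0.694, and without cells that held genes of other lineages, at 0.708. Rapsn, known from the nerve-muscle synapse, had 0.572 and 1.87, with the call in cluster 4 lost after thinning, at 0.407. S100a8, a neutrophil gene at 6.48 and 10.5 CPM in cluster 4, had 1.62 and 0.626, with the call in cluster 4 lost after thinning, at 1.16, and without cells that held genes of other lineages, at 1.44. Acta2 and Tagln, genes of smooth muscle and pericytes, had 0.496 and 2.27 and 0.389 and 1.85. In the control macrophages 1 cell held 40.6% of the Acta2 and 39.3% of the Tagln counts, and without cells that held genes of other lineages both ratios lay above 1, at 3.03 and 2.53.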

How the results depend on the processing

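No paired analysis was possible because each group had 1 library. Of 161 named genes, 105 kept their direction and their side of the threshold under all 8 alternatives, 40 lost a call under at least 1, 14 gained one and 7 turned, and a gene can be in more than 1 of the last 3 groups. The lower ratios of H2-Aa, H2-Ab1, H2-Eb1, Cd74, H2-DMb1, Il1b, Ccrl2 and Nr4a1 and the higher ones of Lyve1, Cbr2, Slc40a1, Ccl12 and Cxcl1 stayed called under all 8. Lyve1, Cbr2 and Il1b, however, were not called in either class II range. Without cells holding genes of other lineages, Tagln turned to 2.53, Acta2 to 3.03 and Serping1 to 0.818. Ifit2 turned to 1.13 and Cxcl9 to 2.94 without their top cells, and to 1.59 and 1.16 after thinning, Tyms to 0.696 after thinning, and Mcm5 to 0.967 without the deepest 5% of cells. Genes called higher numbered 202 with TMM, 923 with no filter and 61 at 50 CPM and 50 counts, and genes called lower 486 and 71 with those filters and 312 among cells with at least 200 class II UMIs per 10000. The control and mutant shares of cells in the cluster were 11.4% and 12.8% under stricter cell limits, 7.30% and 8.57% outside the ameloblast lineage, 28.2% and 45.5% of clusters 1 and 4, and 10.1% and 11.1% of cells with at least 3000 UMIs, the last limit chosen after seeing the data. The share of macrophages with resident genes was 90.8% and 94.9% at 1 UMI, 65.2% and 78.7% at 4 UMIs and 92.7% and 96.9% after thinning to 3000 UMIs, and with class II genes 87.6% and 62.9%, 73.1% and 40.3%, and 87.5% and 63.9%. The cause of these shifts was not tested. Thinned cells hold fewer counts, which widens the intervals of low genes.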
